A study of Mus musculus with 20 samples.

Results

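Liver transcripts of 5 mice given anti-CD40 (labelled Anti-CD40_No_ABX, mice 16 to 20) were compared with those of 5 control mice (Control_No_ABX, mice 6 to 10). Neither group received antibiotics (ABX), so their gut microbiota had not been treated. These 10 of the study's 20 RNA-seq libraries were chosen by group label. The other 10 are 5 control and 5 anti-CD40 mice given ABX. They were part of the same statistical fit, so the gene filter, scaling and estimate of spread used all 20 libraries. Their own response is described only where the response without ABX was set against the response with ABX. Each library came from a different mouse, and RNA was taken from frozen liver. Strain, sex, age, the antibody's dose, clone and timing, whether it activates or blocks CD40, and what the control mice received are not stated in the sources used here. Transcripts typical of hepatocytes dominated all 10 libraries, with albumin (Alb) between 44829 and 174524 CPM (counts scaled to a common library size).

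CD40 belongs to the TNF receptor family and sits on B cells, dendritic cells, macrophages and some endothelial cells. Its ligand is shown by activated helper T cells, and the engaged receptor works through TRAF adaptor proteins to switch on the canonical and noncanonical NF-kB pathways, cytokine production and antigen presentation. Agonist antibodies to CD40 are known to activate macrophages, including the Kupffer cells of the liver, and liver inflammation is among their recorded effects. The comparison asks what anti-CD40 did to gene expression in the liver of mice whose microbiota was left alone.

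Each gene was measured over only part of its exons (a median of 375 bp, or 7.75% of the exon length), because fragments aligned to the mouse genome had been counted at the coordinates of a human annotation. Levels are normalised CPM in single mice or as mean ± SD (n = 5). They are not divided by length and are not compared between genes. Changes are log2 fold changes (anti-CD40 minus control) ± SE from edgeR's quasi-likelihood test, with Benjamini-Hochberg adjusted p over the 2200 genes tested. A gene is said to have risen or fallen at an adjusted p under 0.05.

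Control mouse 8 stood apart from the other control mice. It differed at least 2-fold from the mean of the other 4 for 143 genes, against 34 to 56 genes for the other control mice and 57 to 103 genes for the anti-CD40 mice. Of 87 genes higher in this mouse, 57 (65.5%) were called higher in the fit without it, against 31.3% of all genes. Of 56 genes lower in it, 29 (51.8%) were called lower, against 28.3%. Both comparisons use the other 4 control mice, so these shares are a description and not a test. Mitochondrial transcripts took 22.4% of the counts of control mouse 8, against 28.9% to 31.1% in control mice 6, 7, 9 and 10 and 23.7% to 25.7% in the anti-CD40 mice. The mitochondrial share differed by -3.75 percentage points between anti-CD40 and control mice (exact permutation test, two-sided, p = 0.0476), and by -5.29 without control mouse 8 (exact p = 0.00794). This share is of all counts, and a feature over Hp, described below, took far more of those in anti-CD40 mice. The mitochondrial share of the remaining counts was not tested, so a difference beyond that feature is not shown. Counted fragments numbered 6196703 to 7618736 in control and 5391794 to 6211642 in anti-CD40 mice (exact permutation test, two-sided, p = 0.0159, adjusted over 6 quantities 0.0238, where 0.00794 is the smallest p the design allows). Counts over features that lie on several genes, which were left out of the gene tests, took 45.3% ± 0.208 of control and 61.9% ± 0.419 of anti-CD40 counts (exact p = 0.00794, adjusted 0.0159). A single feature held most of that difference, with 2.52% of all counts in control and 18.7% in anti-CD40 mice on average. With that feature taken out of the total as well, the shares were 43.8% ± 1.53 and 53.2% ± 0.747. Their totals are smaller, above all in anti-CD40 mice, so they cannot be subtracted from the first shares. The feature lies over exons of Hp, which encodes the acute phase protein haptoglobin, and to a lesser extent of Dhodh, Txnl4b and Pkd1l3 (886, 98, 74 and 51 bp; chr8:109573978-109648738). It took 1.26%, 1.48%, 6.86%, 1.30% and 1.72% of all counts in control mice 6 to 10. In anti-CD40 mice 16 to 20 it took 19.9%, 16.6%, 17.9%, 19.6% and 19.2%. The groups did not overlap (exact permutation test, two-sided, p = 0.00794), and control mouse 8 held the highest share of the control mice. Its counts cannot be divided among the 4 genes. Control mice 6 to 8 lay in plate column 3 and anti-CD40 mice 17 to 20 in column 5, so only mouse 16 and control mice 9 and 10 share a column (column 4).

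Of the 2200 genes tested, 1333 (60.6%) differed between the groups. There were 700 genes (31.8%) that rose and 633 (28.8%) that fell, and 344 (15.6%) rose and 247 (11.2%) fell at least 2-fold. The shares of 31.8% and 28.8% are the background for every list count below. For 936 genes (42.5%) the 2 groups of mice did not overlap. The median log2 fold change of all genes was 0.03, with quartiles of -0.46 and 0.58. A fit of the 10 libraries without ABX alone called 1222 genes, 639 higher and 583 lower. Without control mouse 8, 1322 genes were called, 700 higher and 622 lower. Without anti-CD40 mice 19 and 20, which had the lowest levels of several genes named below, 1245 were called. With plate column as a term, a fit that rests on mouse 16 against mice 9 and 10, 735 were called, 721 of them in the same direction as before. That fit ended the calls of 17 of the genes chosen to be named, among them Apbb1, Apob, Cd8a, Cfd, Chd9, Col14a1, Eif5b, F8, Frat1, Iars, mt-Co1, Per1, Pkhd1, Xbp1 and Zbtb7a. It moved the log2 values of Col4a2 (to 1.95), F13a1 (to 4.90), Il33 (to 3.31), Vdr (to 7.56) and Cyp2c69 (to -3.39) by over 1.5 times. It also lowered many list counts given below: members that fell came to 2 of 10 for sinusoidal endothelium, 1 of 8 for complement and coagulation, 4 of 9 for hepatocyte identity, 5 of 16 for lysosome and autophagy, 2 of 14 for mitochondrial translation and 11 of 52 for proteasome and ubiquitin. Members that rose came to 7 of 30 for splicing and RNA binding, 3 of 22 for ribosome biogenesis, 10 of 72 for vesicle traffic, 9 of 51 for actin and adhesion, 15 of 59 for kinases and phosphatases, 9 of 57 for solute carriers, 5 of 24 for growth factor signalling, 5 of 43 for chromatin, 2 of 13 for immediate early and hormone response factors and 1 of 3 for T and NK cells. For the interferon, death signalling, leukocyte signalling and cytochrome P450 lists, the larger count stayed within 1.5 times. Scaling to library totals shifted the all-gene median from 0.03 to 0.27, and 69.7% of its calls were then higher (932 of 1337), against 52.5% with TMM scaling. Small changes near 0 therefore depend on the scaling.

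**Figure D1:**
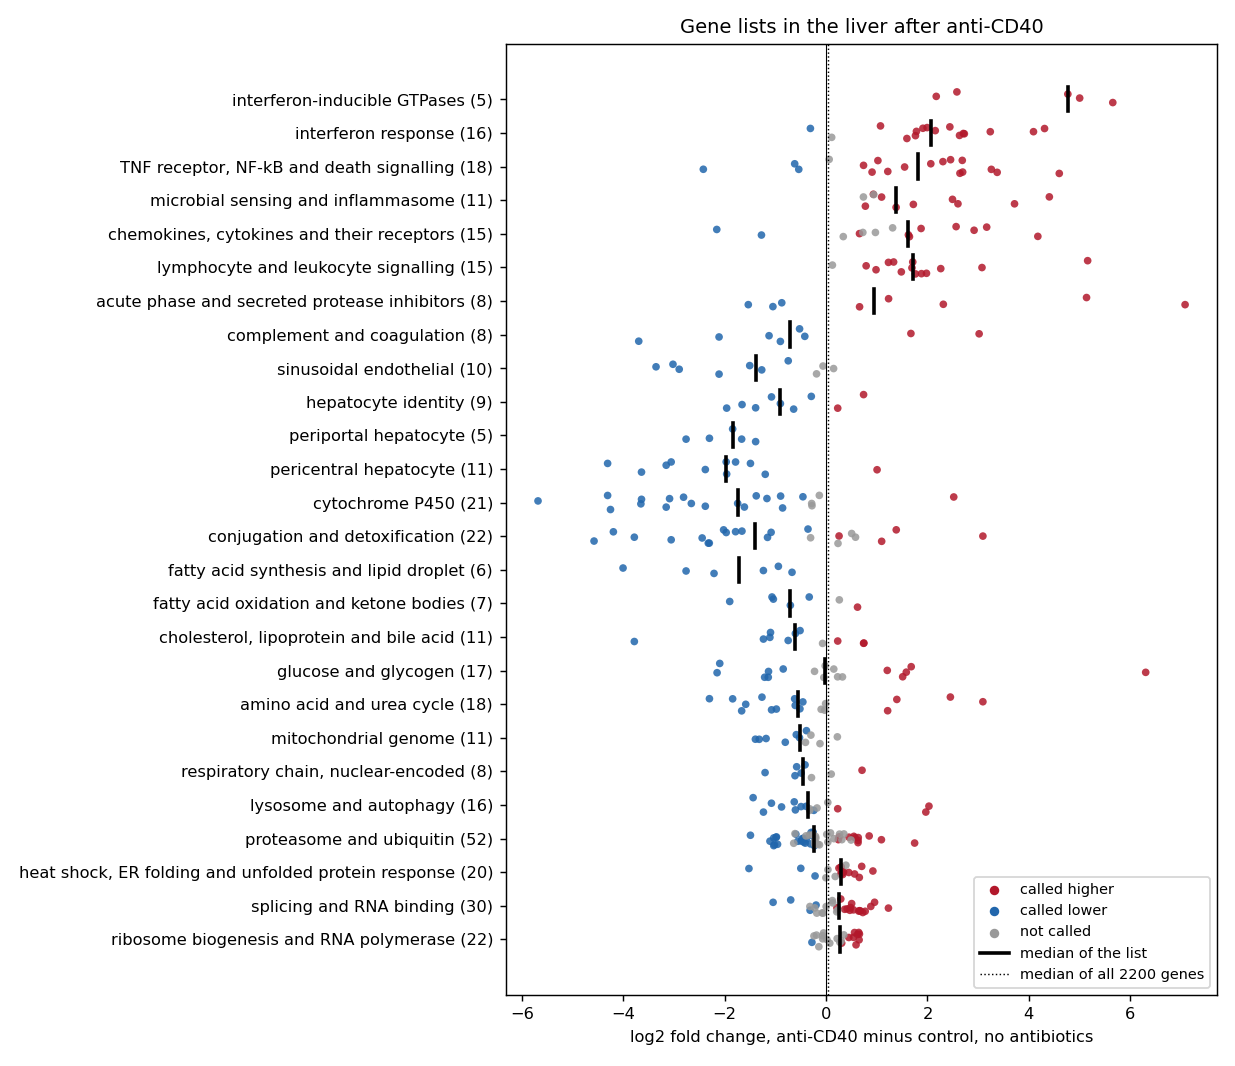
Log2 fold changes (anti-CD40 minus control, no antibiotics) of the tested members of 26 gene lists, each point 1 gene, with the list's median as a bar and the number of tested members in brackets. Ly6i and Ccl3, which have at most 3 counts over the control mice, are not drawn. The medians of the top 6 lists, all immune, lie between 1.38 and 4.77, and those of the lists from complement and coagulation to amino acid metabolism lie below 0.

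The interferon-inducible GTPases rose most among the lists examined. These proteins are made in response to interferon and act against intracellular pathogens. All 5 measured members rose, with a median log2 fold change of 4.77, against 31.8% of all genes that rose and a median of 0.03. Together the 5 took 26.2 to 36.8 CPM in the control mice and 835 to 1010 CPM in the anti-CD40 mice. The promoters of 4 of them carry the same arrangement of 2 interferon motifs, shown here because it is shared by the genes that rose most together. The lines below are read from the RefSeq promoter table (GRCm38.p6), 5′ to 3′ on the gene's strand, at chr11:48992284-48992364 (Tgtp1, minus strand), chr11:49064243-49064323 (Tgtp2, minus), chr11:48927218-48927298 (Gm12185, minus) and chr11:58214872-58214952 (Irgm2, plus). Capitals mark the gamma-activated site, searched as TTCNNNGAA, and the interferon-stimulated response element, searched as GAAA and GAAA with any 2 bases between them.
Tgtp1: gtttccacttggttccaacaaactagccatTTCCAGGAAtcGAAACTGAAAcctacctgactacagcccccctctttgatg
Tgtp2: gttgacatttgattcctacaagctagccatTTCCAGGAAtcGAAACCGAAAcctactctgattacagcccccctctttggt
Gm12185: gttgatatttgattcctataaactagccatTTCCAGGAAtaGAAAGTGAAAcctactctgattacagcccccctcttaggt
Irgm2: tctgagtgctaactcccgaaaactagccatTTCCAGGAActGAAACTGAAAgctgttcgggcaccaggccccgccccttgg

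In each of the 4 the second motif began 11 bases after the start of the first. The pair began 88 bases before the annotated start of Tgtp1, 81 before Tgtp2, 86 before Gm12185 and 75 before Irgm2. The joined arrangement, the first motif, any 2 bases and the second motif, on either strand, was looked for after these sequences had been seen. It occurs in 5 of the 32851 promoters in the table (0.0152%). The fifth is that of Igtp, another GTPase of the same family, which was not tested. The GTPase genes are related copies, so these promoters are not independent of each other. The promoter of the remaining member, Gm5431, held neither motif in the 250 bases before its start. A match is a description of the letters and not of binding.

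Tgtp1, an interferon-inducible GTPase named after T cells, was measured over 599 bp (chr11:48985871-48987555). Which cells its counts came from cannot be told in whole liver. Tgtp1 stood at 12.4, 8.56, 15.2, 12.6 and 14.5 CPM in control mice 6 to 10 and at 564, 606, 608, 694 and 722 CPM in anti-CD40 mice 16 to 20 (5.66 ± 0.20, adjusted p = 9.08e-16). Its neighbour and near copy Tgtp2 stood at 6.85, 4.36, 4.999, 6.09 and 5.22 CPM in control and at 177, 175, 173, 182 and 185 CPM in anti-CD40 mice (5.004 ± 0.14, adjusted p = 5.9e-19). The anti-CD40 mice were closely alike for Tgtp2, and no mouse of either group came near the other group. Of the 31-base words in the measured stretch of Tgtp1, 96.8% also occur in Tgtp2, so how the authors' counting divided fragments between these copies is uncertain. Irgm2, a GTPase of the autophagy-linked Irgm branch, stood at 9.502, 9.05, 11.2, 11.7 and 11.5 CPM in control and at 62.9, 68.4, 51.6, 67.6 and 66.2 CPM in anti-CD40 mice (2.58 ± 0.19, adjusted p = 1.46e-10). Its measured stretch of 163 bp shares 84.2% of its words with Igtp. The predicted gene Gm12185 rose from 0.468 ± 0.394 to 13.3 ± 3.85 CPM (4.77 ± 0.42) and Gm5431 from 4.34 ± 0.593 to 19.6 ± 3.01 CPM (2.17 ± 0.18), with the groups apart for both.

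Of 16 measured genes of the interferon response list, 14 rose and 1 fell (Irf2, at -0.31 ± 0.08), with a median of 2.07. Irf5 stood at 0.11 ± 0.11 (adjusted p = 0.407). Parp12, an interferon-induced ADP-ribosyltransferase, stood at 34.2, 32.3, 32.3, 28.8 and 34.5 CPM in control mice 6 to 10. In anti-CD40 mice 16 to 20 it stood at 115, 115, 119, 117 and 145 CPM (1.91 ± 0.10, adjusted p = 2.88e-14). All anti-CD40 mice exceeded all control mice by a wide margin. Lgals3bp, a secreted galectin-binding glycoprotein, rose from 184 ± 31.6 to 819 ± 62.6 CPM (2.15 ± 0.12). Ifitm3, a membrane protein that restricts virus entry, was among the 6 genes that gained most CPM. It stood at 1601, 1831, 2181, 1870.04 and 1755 CPM in control and 7002, 5055, 6264, 6629 and 6841 CPM in anti-CD40 mice (1.78 ± 0.10, adjusted p = 1.69e-13). The other members that rose included Ifit1bl2 at 4.31 ± 0.43, Ms4a4c at 4.09 ± 0.43, Slfn5 at 2.71 ± 0.17 and Ifih1, the cytoplasmic RNA sensor, at 1.07 ± 0.13.

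Across all promoters of genes that rose at least 2-fold, the interferon-stimulated response element was present in 7.72% of 337 promoters (249 of 344 genes matched). It was present in 1.16% of the 258 promoters of genes that fell at least 2-fold (168 of 247 genes matched), in 3.42% of the 2164 promoters of all genes tested and in 3.44% of the 32851 in the table. The gamma-activated site was present in 10.98%, 6.59%, 7.44% and 8.30% of the same promoters. The wide NF-kB motif, GGG and CC with any 5 bases between them, was present in 64.4%, 58.9%, 66.6% and 50.8% of the same promoters. The strict form, GGGA and TTTCC with any base between them, was rare, at 0.89% (3 promoters), 0%, 0.23% (5 promoters) and 0.41%. The TATA box TATAAA was present in 11.6% of promoters of genes that rose, 16.7% of genes that fell, 8.41% of all genes tested and 13.6% of the table. The hepatocyte motif AGTCCA, from HNF4 sites, was present in 11.9%, 12.02%, 11.7% and 14.15%. Motifs were searched on both strands over 300 bases. Genes with several promoters count more than once, and these shares carry no test.

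Genes of TNF receptor, NF-kB and death signalling were mostly higher, with 14 of 18 measured members that rose, 3 that fell and a median of 1.81. The signal chain runs from receptors through kinases and inhibitors to the NF-kB subunits. Fas, the death receptor, stood at 13.8, 11.8, 18.2, 14.4 and 12.8 CPM in control mice and at 65.2, 50.4, 68.6, 61.1 and 52.5 CPM in anti-CD40 mice (2.07 ± 0.11, adjusted p = 9.58e-14). Ripk2, the kinase downstream of the NOD sensors, stood at 9.502, 10.02, 11.3, 10.1 and 11.8 CPM in control and 92.4, 49.2, 76.7, 75.8 and 46.0 CPM in anti-CD40 mice (2.69 ± 0.18, adjusted p = 1.97e-11). Its anti-CD40 mice spread widely, yet the lowest, mouse 20, lay far above every control mouse. Nfkbie, an inhibitor that holds NF-kB in the cytoplasm, changed most in the list. It stood at 2.38, 2.1005, 2.999, 3.56 and 3.03 CPM in control and 76.1, 63.5, 84.9, 73.8 and 45.5 CPM in anti-CD40 mice (4.60 ± 0.18, adjusted p = 4.85e-16). Apaf1, the core of the apoptosome, rose from 2.46 ± 0.671 to 23.8 ± 2.68 CPM (3.26 ± 0.19, adjusted p = 3.18e-13). Other members that rose were the noncanonical subunit Nfkb2 (3.38 ± 0.21), the ubiquitin ligase Birc2 (2.69 ± 0.16), the inhibitors Nfkbia (2.46 ± 0.16) and Nfkbiz (2.31 ± 0.17), the necroptosis kinase Ripk3 (1.55 ± 0.21) and the kinase subunit Ikbkb (0.91 ± 0.09). The other kinase subunit, Chuk, fell (-0.54 ± 0.09), as did the caspase inhibitor Xiap (-0.62 ± 0.12) and the receptor Tnfrsf19 (-2.42 ± 0.49). The adaptor Traf6 stood at 0.06 ± 0.08 (adjusted p = 0.507).

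Sensors of microbial products and inflammasome components were also higher, with 9 of 11 members that rose, 0 that fell and a median of 1.38. Nlrp3, the inflammasome sensor, stood at 1.54, 0.646, 2.67, 0.742 and 1.01 CPM in control and 14.5, 23.4, 29.4, 10.1 and 10.2 CPM in anti-CD40 mice (3.72 ± 0.40, adjusted p = 5.1e-08). Mouse 18 was the highest and mice 19 and 20 the lowest of the anti-CD40 mice, and the groups did not overlap. Nod1, a sensor of bacterial peptidoglycan, stood at 31.2, 29.7, 58.1, 32.7 and 37.6 CPM in control and 115, 108, 104, 87.1 and 77.7 CPM in anti-CD40 mice (1.38 ± 0.16). Control mouse 8 was the highest of the control mice. Ifi209, of the DNA-sensing Ifi200 family, rose from 1.26 ± 0.699 to 7.81 ± 2.75 CPM (2.602 ± 0.34) over a stretch that shares 50% of its words with Ifi214. Pglyrp2, a secreted enzyme that cuts peptidoglycan, rose by 4.41 ± 0.64. Nlrc4 rose by 1.72 ± 0.29, and Ly96, the partner of the lipopolysaccharide receptor, by 0.78 ± 0.16. The 2 members not called were Ifi207 (0.74 ± 0.34) and Nlrc3 (0.94 ± 0.50).

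Among 15 chemokines, cytokines and their receptors, 9 rose and 2 fell, with a median of 1.62. Il2rb, a signalling chain of the interleukin 2 and 15 receptors, stood at 4.05, 5.17, 4.83, 4.75 and 4.89 CPM in control and 27.4, 31.4, 24.7, 30.3 and 26.5 CPM in anti-CD40 mice (2.57 ± 0.16, adjusted p = 1.41e-12). The control mice lay close together, and the groups were apart. The alpha chain Il2ra rose by 3.17 ± 0.58, Il18rap by 2.92 ± 0.40 and the shared receptor chain Csf2rb by 1.62 ± 0.29. Il20rb, a chain of the interleukin 20 receptor, rose from 0.412 ± 0.385 to 8.17 ± 3.57 CPM (4.18 ± 0.44) over a single stretch of 76 bp. Ccl24, a chemokine that attracts eosinophils, fell. It stood at 10.1, 14.1, 16.8, 8.91 and 15.7 CPM in control and 2.64, 3.71, 2.97, 3.09 and 2.05 CPM in anti-CD40 mice (-2.16 ± 0.28). The interleukin 1 receptor partner Il1rap fell too (-1.28 ± 0.42). Without control mouse 8, 12 members rose and 2 fell. Ccl3, a macrophage chemokine, was 96.1 times as high in anti-CD40 mice by its summed counts (295 against 3; 95% interval from counting error 32.6 to 469). In anti-CD40 mice 16 to 20 it stood at 4.95, 9.60, 26.1, 1.86 and 3.15 CPM, so mouse 18 held much of the signal.

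Of 15 signalling genes typical of leukocytes, 14 rose and 0 fell, with a median of 1.71. Rgs1, a brake on chemokine receptor signalling, stood at 2.096, 2.42, 1.4996, 2.23 and 1.35 CPM in control and at 52.0, 76.7, 93.2, 68.7 and 58.6 CPM in anti-CD40 mice (5.16 ± 0.25, adjusted p = 1.48e-13). Lcp1, the actin-bundling plastin of leukocytes, stood at 36.9, 35.2, 39.7, 40.1 and 39.8 CPM in control and 128, 136, 139, 122 and 95.04 CPM in anti-CD40 mice (1.69 ± 0.10, adjusted p = 7.1e-13). Its 2 features stood at 2.92 over 490 bp and at 0.99 over 958 bp. For Rgs1 and Lcp1 every anti-CD40 mouse lay above every control mouse. Pik3ap1, an adaptor to phosphoinositide 3-kinase, rose from 177 ± 8.80 to 351 ± 15.9 CPM (0.99 ± 0.07). The kinases Syk (2.26 ± 0.25) and Btk (1.71 ± 0.31), the exchange factor Vav1 (1.48 ± 0.31) and the oxidase subunit Ncf1 (3.08 ± 0.22) rose as well. Ly6i, a surface antigen of the Ly6 family, was counted once in all control mice and 603 times in anti-CD40 mice, 589.6 times as much (95% interval from counting error 105 to 23325). In whole liver, more leukocytes and more RNA of these genes per cell cannot be told apart.

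Antigen presentation genes did not move as a group: 2 of 5 rose, 2 fell and the median was 0.01. H2-Aa, a class II chain, stood at 52.3, 34.7, 68.5, 58.1 and 50.04 CPM in control and 398, 355, 334, 293 and 306 CPM in anti-CD40 mice (2.68 ± 0.19, adjusted p = 1.78e-10), and H2-DMb1, which loads peptide onto class II molecules, rose from 3.44 ± 0.827 to 21.4 ± 1.51 CPM (2.63 ± 0.16). The class I-like molecule Mr1 fell (-0.95 ± 0.25). H2-Q10, a class I molecule secreted by hepatocytes, fell from 8681 ± 566 to 6559 ± 655 CPM (-0.40 ± 0.09, adjusted p = 0.000429), and was no longer called under scaling to library totals (-0.17).

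**Figure D2:**
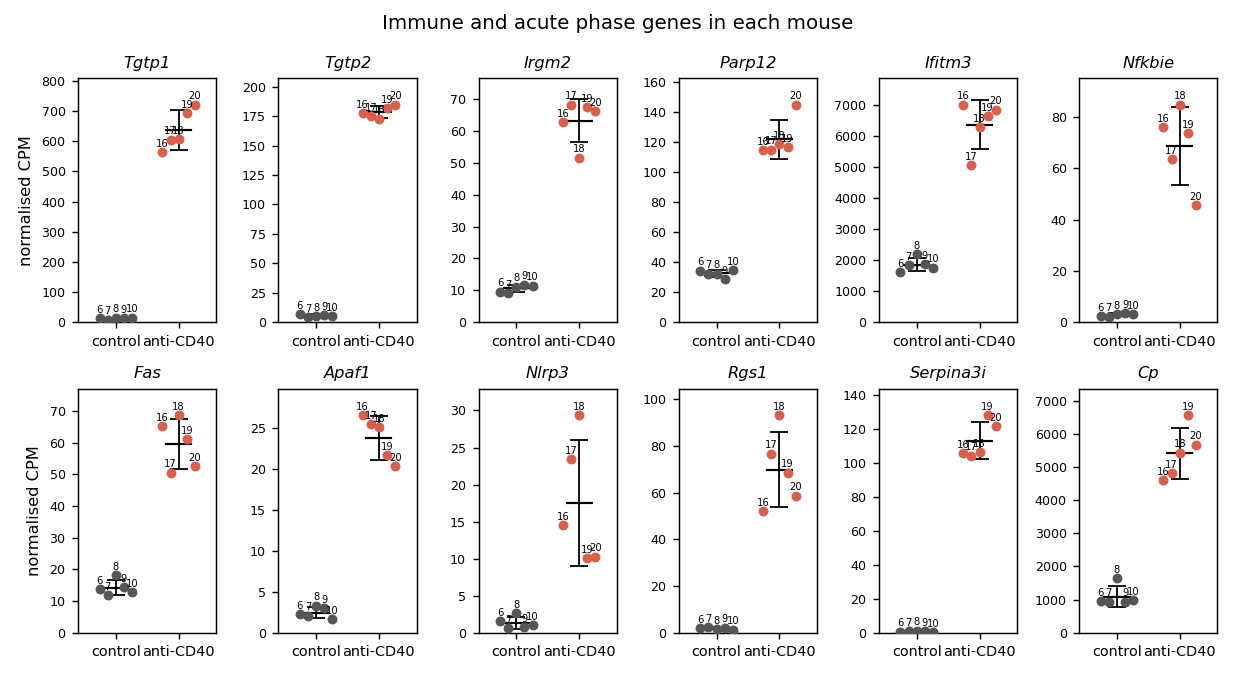
Normalised CPM of 12 immune and acute phase genes, with 1 point per mouse (numbered), the mean as a bar and the SD as whiskers; axes are linear and start at 0. In all 12 panels the 5 anti-CD40 mice lie above the 5 control mice. Control mouse 8 is the highest control mouse for Tgtp1, Ifitm3, Fas, Apaf1, Nlrp3, Serpina3i and Cp.

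Markers of the liver's other cells moved in different directions, and only a few of each list were measured. Of 41 sinusoidal endothelial markers listed, 10 were tested, of which 0 rose and 7 fell, with a median of -1.39. The summed level of the list was 265 to 302 CPM in control and 59.3 to 193 CPM in anti-CD40 mice. These cells line the liver's capillaries and take up waste molecules from blood. Stab2, their hyaluronan scavenger receptor, stood at 41.6, 43.6, 56.0, 45.3 and 43.5 CPM in control and 6.5995, 4.48, 6.27, 2.78 and 2.36 CPM in anti-CD40 mice (-3.36 ± 0.31, adjusted p = 2.5e-08), and at -2.04 with attribution from 1 bp. Ehd3, an endocytic recycling protein of these cells, stood at 87.1, 77.6, 46.2, 98.0 and 107 CPM in control and 11.9, 12.2, 12.7, 6.65 and 7.72 CPM in anti-CD40 mice (-3.02 ± 0.29, adjusted p = 5.3e-08). F8, which encodes coagulation factor VIII, stood at 10.2, 12.9, 14.996, 10.2 and 13.1 CPM in control and 3.30, 3.84, 3.63, 1.55 and 1.73 CPM in anti-CD40 mice (-2.11 ± 0.33). For all of these the groups were apart, and mice 19 and 20 were the lowest of the 10 mice. Adgrl4 (-2.90 ± 0.55), Flt1 (-1.51 ± 0.39), Tie1 (-1.27 ± 0.32) and the transcription factor Gata4 (-0.75 ± 0.18) fell too. The members that were not called were Stab1 (0.15 ± 0.25), Pecam1 (-0.19 ± 0.51) and Adgrf5 (-0.06 ± 0.47). With plate column as a term 2 of the 10 fell, and F8 (-1.82) was no longer called. Fewer endothelial cells and less RNA per cell cannot be told apart here.

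Of 16 Kupffer cell genes listed, 3 were tested, of which 1 rose, 1 fell and 1 was not called. Mrc1, the mannose receptor, which sinusoidal endothelial cells also carry, stood at 15.9, 14.2, 19.8, 11.1 and 19.4 CPM in control and at 0.825, 0.384, 0.165, 0.155 and 0 CPM in anti-CD40 mice (-5.63 ± 0.45, adjusted p = 4.93e-10). Spic, a transcription factor of iron-handling macrophages, stood at 3.77, 4.69, 9.33, 2.82 and 4.21 CPM in control and 19.1, 19.5, 33.5, 16.4 and 13.4 CPM in anti-CD40 mice (2.04 ± 0.29). Marco, a scavenger receptor, stood at 15.9, 14.9, 93.1, 9.503 and 16.7 CPM in control and 54.1, 39.1, 133, 64.3 and 38.5 CPM in anti-CD40 mice (1.14 ± 0.56, adjusted p = 0.0906). The groups overlapped for Marco through control mouse 8 alone, and without that mouse its value was 2.20 and it was called (adjusted p = 0.000329). Of 5 monocyte and macrophage genes, 3 rose and 2 fell. Ms4a7 stood at 1.26, 0.646, 1.33, 0.594 and 0.842 CPM in control and 4.29, 4.48, 5.28, 5.26 and 3.31 CPM in anti-CD40 mice (2.25 ± 0.30). Adgre1, the F4/80 antigen, stood at 16.1, 19.9, 38.0, 14.997 and 20.4 CPM in control and 2.97, 3.97, 7.59, 3.25 and 1.42 CPM in anti-CD40 mice (-2.50 ± 0.38). Macrophage genes therefore moved in both directions, Adgre1 and Mrc1 down and Ms4a7 and Spic up.

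All 3 measured T and NK cell genes rose at low levels, from a summed 0.699 to 2.08 CPM in control to 3.78 to 8.32 CPM in anti-CD40 mice. Cd8b1, a chain of the CD8 coreceptor, stood at 0.279, 0.323, 0.666, 0.445 and 0 CPM in control and 3.79, 2.94, 1.48, 1.70 and 1.73 CPM in anti-CD40 mice (2.70 ± 0.52). The other chain, Cd8a, rose from 0.376 ± 0.325 to 2.21 ± 1.09 CPM (2.52 ± 0.51). With plate column as a term Cd8a (1.67) was not called. Of the B and plasma cell genes, the heavy chain Ighm (0.09 ± 0.16, adjusted p = 0.649) and Cd79b (0.08 ± 0.30, adjusted p = 0.847) were not called. Xbp1, which hepatocytes also express, rose slightly (0.33 ± 0.13, adjusted p = 0.0322, with overlapping groups), a call that was lost in 6 of the 10 fits without 1 mouse. The neutrophil gene Padi4, an enzyme that citrullinates histones, rose from 0.323 ± 0.381 to 2.81 ± 1.59 CPM (3.09 ± 0.62), and the groups overlapped. Slc4a1 (0.13 ± 0.39) and Itga2b (0.41 ± 0.45), of red cells and platelets, were not called. Of 17 dendritic cell markers listed, 3 could be attributed and 0 had enough counts to be tested.

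Of 6 genes of stellate cells and fibroblasts, 1 rose and 1 fell. Fbln5, an elastic fibre protein, stood at 6.99, 5.66, 9.83, 6.09 and 6.91 CPM in control and 0.330, 1.02, 0.660, 0.155 and 0.473 CPM in anti-CD40 mice (-3.65 ± 0.36, adjusted p = 5.98e-09). Col4a2, a basement membrane collagen, stood at 69.0, 76.9, 119, 59.5 and 76.5 CPM in control and 262, 204, 267, 107 and 82.9 CPM in anti-CD40 mice (1.203 ± 0.32), with mice 19 and 20 within the control range. Col3a1, a fibrillar collagen, stood at 144, 101, 209, 101 and 109.7 CPM in control and 76.4, 81.6, 125, 17.01 and 26.01 CPM in anti-CD40 mice (-1.03 ± 0.58, adjusted p = 0.139), where mice 19 and 20 were again the lowest. Sox9, a transcription factor of bile duct cells, rose from 2.21 ± 0.963 to 18.4 ± 4.80 CPM (3.05 ± 0.25, adjusted p = 2.4e-10), while the other duct gene, Pkhd1, fell from 3.43 ± 0.723 to 1.49 ± 0.796 CPM (-1.18 ± 0.34) with overlapping groups. The adipose gene Cfd stood at 3.63, 2.59, 29.8, 9.503 and 7.58 CPM in control and 1.32, 0.640, 0.330, 0.464 and 1.26 CPM in anti-CD40 mice (-3.70 ± 0.92), with control mouse 8 far above the other control mice. Without that mouse the value of Cfd was -2.84 (adjusted p = 0.00845).

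**Figure D3:**
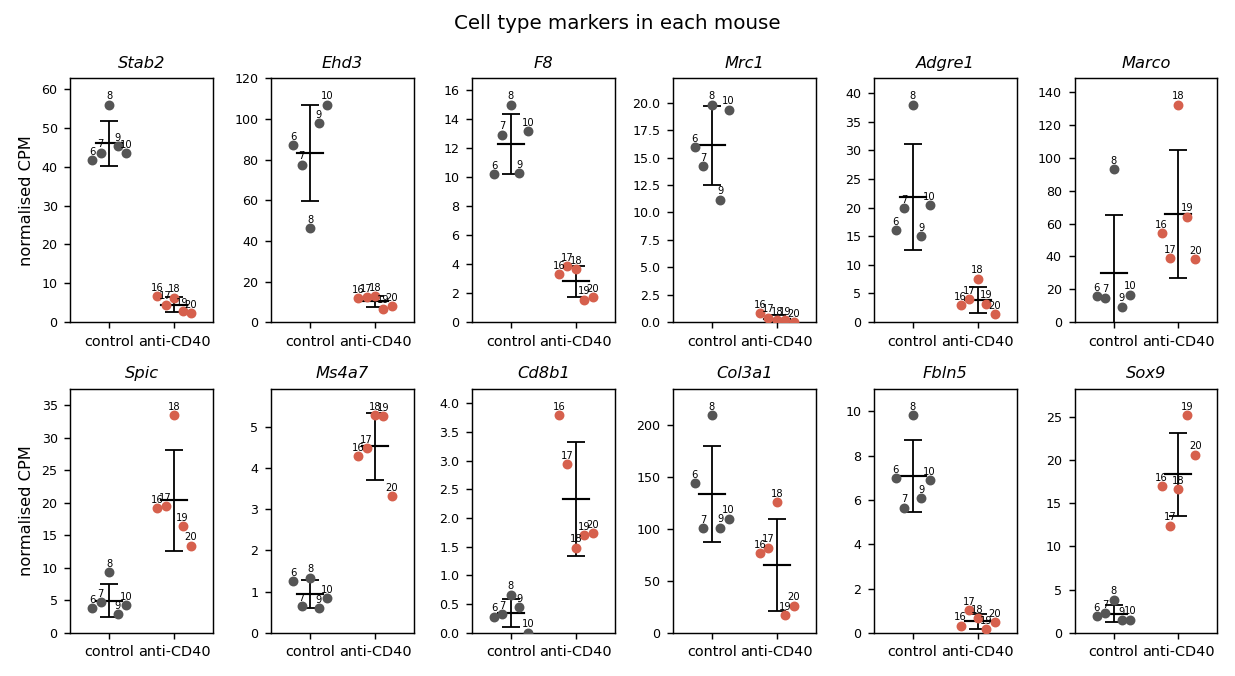
Normalised CPM of 12 genes used as cell type markers, with 1 point per mouse (numbered), the mean as a bar and the SD as whiskers; axes are linear and cut at 0. Stab2, Ehd3, F8, Mrc1, Adgre1 and Fbln5 are lower in all anti-CD40 mice, Spic, Ms4a7, Cd8b1 and Sox9 are higher in all of them, and the groups overlap for Marco and Col3a1.

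Secreted proteins of the acute phase divided into genes that rose and genes that fell, 5 and 3 of 8. Serpina3i, a protease inhibitor of the antichymotrypsin group, stood at 0.559, 0.808, 1.33, 0.891 and 0.505 CPM in control and at 106, 104, 106, 128 and 121 CPM in anti-CD40 mice (7.08 ± 0.24, adjusted p = 4.31e-16). Its measured stretch shares 80.7% of its words with related genes, mostly Serpina3h, so the rise may belong to more than 1 of them. Cp, the copper-carrying ferroxidase ceruloplasmin, stood at 947, 938, 1638, 943 and 980.2 CPM in control and 4598, 4818, 5428, 6557 and 5666 CPM in anti-CD40 mice (2.31 ± 0.14, adjusted p = 5.17e-13). A2m, a broad protease inhibitor, rose by 5.14 ± 0.69. Ambp, the precursor of bikunin, stood at 3370.00, 3195, 6539, 3621 and 3672 CPM in control and 7040.2, 5141, 6238, 7203 and 6626 CPM in anti-CD40 mice (0.66 ± 0.14). Its groups overlapped through control mouse 8, and without that mouse its value was 0.89 (adjusted p = 6.79e-09). Serpina1d (-1.05 ± 0.11) and Serpina1e (-1.53 ± 0.16), forms of alpha-1-antitrypsin that share 53.8% and 69.2% of their words with other copies, fell, as did Itih2 (-0.87 ± 0.09).

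Genes of the complement and coagulation list mostly fell, 6 of 8 with a median of -0.71, and 2 rose. Among those that fell are F8 and Cfd, described above with the endothelial and adipose genes. Cfd, complement factor D, is the only complement component among the tested members, so the list mainly covers coagulation. Proc, which encodes the anticoagulant protein C, fell from 537 ± 21.6 to 288 ± 44.7 CPM (-0.90 ± 0.09), and the pathway inhibitor Tfpi (-1.13 ± 0.35), kininogen Kng1 (-0.52 ± 0.13) and the protease Habp2 (-0.42 ± 0.09) fell too. Cpb2, a carboxypeptidase that slows clot breakdown, stood at 438, 433, 884, 448 and 442 CPM in control and 1603, 1513, 1686, 1863 and 1773 CPM in anti-CD40 mice (1.67 ± 0.15, adjusted p = 1.98e-09). F13a1, the clot-crosslinking transglutaminase found in macrophages and platelets, stood at 0.419, 1.13, 2.17, 0.148 and 0.168 CPM in control and 5.28, 11.1, 12.5, 1.39 and 2.21 CPM in anti-CD40 mice (3.02 ± 0.79). Mouse 19 lay within the control range and mouse 20 just above it. With plate column as a term 1 gene of this list fell and 2 rose.

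Genes that define hepatocytes were lower. Of 9 hepatocyte identity genes, 7 fell and 2 rose (median -0.90), all 5 periportal genes fell (median -1.84), and of 11 pericentral genes 10 fell and 1 rose (median -1.97). Alb stood at 161355, 156859, 149421, 174524 and 155970.00 CPM in control and at 70566, 44829, 62122, 61868 and 65188 CPM in anti-CD40 mice (-1.39 ± 0.13, adjusted p = 2.08e-09). Periportal hepatocytes carry out urea synthesis, and Cps1, its entry enzyme, stood at 3807, 3647, 2944, 3728 and 4042 CPM in control and 760.4, 724, 642, 751 and 808 CPM in anti-CD40 mice (-2.30 ± 0.11, adjusted p = 9.13e-15). Uroc1, the urocanate hydratase of histidine breakdown, fell from 411 ± 41.3 to 114 ± 14.2 CPM (-1.84 ± 0.10) and Elovl2, which lengthens polyunsaturated fatty acids, from 333 ± 62.1 to 49.1 ± 9.24 CPM (-2.76 ± 0.15). Gulo, the last enzyme of vitamin C synthesis and a pericentral gene, stood at 797, 786, 747, 776 and 838 CPM in control and 165, 143, 237, 224 and 237 CPM in anti-CD40 mice (-1.97 ± 0.13, adjusted p = 2.06e-12). Genes of both zones thus fell by similar medians. These lists overlap, with Alb in both the identity and the periportal list and Cyp2c50 in both the pericentral and the cytochrome P450 list, so their counts are not separate. The identity gene that rose most was the bile acid feedback receptor Fgfr4, from 41.2 ± 4.25 to 68.8 ± 10.8 CPM (0.74 ± 0.11, adjusted p = 5.46e-06). A changed mix of cells and a lower level per hepatocyte cannot be told apart in whole liver.

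Cytochrome P450 genes, which oxidise drugs, steroids and fatty acids, fell in 17 of 21 cases, with 1 that rose and a median of -1.74. Cyp2c50 stood at 665, 626, 529.8, 734 and 646 CPM in control and at 51.0, 41.9, 62.0, 50.9 and 50.9 CPM in anti-CD40 mice (-3.64 ± 0.12, adjusted p = 5.77e-18). Cyp2c23, an arachidonic acid epoxygenase, stood at 704, 580.1, 419, 659 and 519.8 CPM in control and 46.4, 19.6, 29.2, 32.5 and 23.96 CPM in anti-CD40 mice (-4.25 ± 0.19, adjusted p = 6.73e-14). Cyp2c29 fell from 689.8 ± 124 to 34.9 ± 11.9 CPM (-4.31 ± 0.22) and Cyp4f14, an omega-hydroxylase of leukotrienes and fatty acids, from 409.8 ± 68.5 to 32.6 ± 7.17 CPM (-3.65 ± 0.17). Control mouse 8 was the lowest control mouse for these 4 genes, and the anti-CD40 mice lay far below it in each. Cyp2c69 had the largest fall, from 8.82 ± 5.86 to 0.161 ± 0.230 CPM (-5.68 ± 0.58). It was measured over only 50 bp, of which 46 bp lie in the first of its 9 exons (GRCm38, chr19:39886540-39886585, minus strand, coding). That stretch is printed because it decides what the value can mean.
Cyp2c69: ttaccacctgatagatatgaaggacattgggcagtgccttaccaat

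The same 46 bases occur without a mismatch in transcripts of Cyp2c40, so the fall cannot be assigned to Cyp2c69 rather than to that gene. Of the other family members, Cyp2c29 shares 14.1% and Cyp2c50 10.2% of the 31-base words of its measured stretch with related genes. Over all 174 genes named by rule, 120 shared no word with another gene, and 12 shared at least 50% of their words. Further genes named in the text with over 30% of their words shared included Gm5431 (61.3%), mt-Co1 (39.6%), Cct3 (35.1%), Tfb2m (34.8%), Sat1 (32.8%) and Ifitm3 (30.5%).

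Conjugation and detoxification enzymes also fell in most cases, 14 of 22 with 4 that rose (median -1.41). Dpyd, the first enzyme of pyrimidine breakdown, stood at 558, 637, 607, 643 and 631 CPM in control and 156, 121, 162, 181 and 137 CPM in anti-CD40 mice (-2.02 ± 0.09, adjusted p = 2.4e-15). Every anti-CD40 mouse lay below every control mouse for Dpyd. Akr1d1, the steroid 5-beta-reductase of bile acid synthesis, stood at 188, 214, 169, 279 and 224 CPM in control and 13.2, 13.6, 12.5, 15.9 and 22.7 CPM in anti-CD40 mice (-3.78 ± 0.17, adjusted p = 6.73e-14). Among the 10 largest falls were the carboxylesterases Ces1e (58.4 ± 16.7 to 3.22 ± 0.939 CPM, -4.20 ± 0.24) and Ces4a (5.51 ± 3.59 to 0.209 ± 0.192 CPM, -4.58 ± 0.67). Ces1e was counted over a single stretch of 69 coding bases in exon 5 of 14 (GRCm38, chr8:93217499-93217567, minus strand), shown here as an example of how little of a gene a value can rest on.
Ces1e: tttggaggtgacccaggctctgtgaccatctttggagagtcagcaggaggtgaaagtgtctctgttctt

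The nearest stretch in the other 19 carboxylesterase genes compared, in Ces1h, differs at 4 positions. Even so, 38.5% of the 31-base words of the measured stretch of Ces1e also occur in other genes, 30.8% in Ces1f.

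All 6 measured genes of fatty acid synthesis and lipid droplets fell, with a median of -1.72. Lpin1, a phosphatidate phosphatase of triglyceride synthesis, stood at 654, 416, 258, 661 and 758 CPM in control and at 21.8, 43.5, 28.7, 28.6 and 47.8 CPM in anti-CD40 mice (-4.01 ± 0.29, adjusted p = 1.05e-09). Scd1, the desaturase that makes oleate, stood at 6665, 8789, 4881, 9295 and 7105 CPM in control and 829, 1809, 1651, 1177 and 2469 CPM in anti-CD40 mice (-2.21 ± 0.24). Control mouse 8 was the lowest control mouse for both genes, and the groups were apart. Fads2, the desaturase of polyunsaturated fatty acids, fell from 350.2 ± 72.5 to 149 ± 24.3 CPM (-1.24 ± 0.14). Of 7 genes of fatty acid oxidation, 5 fell and 1 rose (median -0.70). Ehhadh, the peroxisomal bifunctional enzyme, stood at 156, 176, 79.6, 167 and 135 CPM in control and 39.9, 31.9, 34.1, 39.0 and 46.5 CPM in anti-CD40 mice (-1.90 ± 0.17). Acadvl, which begins the oxidation of long chains in mitochondria, fell from 249 ± 7.41 to 153 ± 22.04 CPM (-0.70 ± 0.08) and Scp2, a sterol carrier and peroxisomal thiolase, from 3001 ± 233.96 to 1433 ± 197 CPM (-1.07 ± 0.09).

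Of 11 genes of cholesterol, lipoprotein and bile acid handling, 7 fell and 3 rose (median -0.61). Mttp, which loads lipid onto apolipoprotein B, stood at 417, 381, 363, 411 and 429 CPM in control and 181, 174, 172, 211 and 198 CPM in anti-CD40 mice (-1.10 ± 0.08, adjusted p = 9.37e-12). Lipa, the acid lipase of lysosomes, fell from 827 ± 55.4 to 351 ± 34.7 CPM (-1.24 ± 0.09). Apoe, a ligand for remnant uptake, lost many fragments, from 129875 ± 7155 to 60229.9 ± 9267 CPM (-1.11 ± 0.11). Apob, the structural protein of very low density lipoprotein, stood at 10683, 9715, 10497, 9804 and 10728 CPM in control and 11847, 10616, 11338, 13906 and 12598 CPM in anti-CD40 mice (0.23 ± 0.08, adjusted p = 0.0181). Its groups overlapped, its call was lost without mouse 7, 19 or 20, and its 2 features moved in opposite ways (-1.004 over 168 bp and 0.33 over 1069 bp).

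Of 17 glucose and glycogen genes, 5 rose and 6 fell, with a median of -0.02. With 64.7% of them called, against 60.6% of all genes, the list lay near the background. Pygl, the glycogen phosphorylase of liver, stood at 689, 678, 426, 688 and 674 CPM in control and 136, 130.3, 169, 149 and 153 CPM in anti-CD40 mice (-2.098 ± 0.11, adjusted p = 9.48e-14). Pcx, pyruvate carboxylase, stood at 416, 449.99, 674, 515 and 453 CPM in control and 1666, 1211, 1654, 1990.1 and 1515 CPM in anti-CD40 mice (1.68 ± 0.12, adjusted p = 2.93e-11). Of its 3 features, 1 of 197 bp stood at 1.90, against 0.32 over 110 bp and 0.09 over 106 bp, so the rise of Pcx rests on 1 feature. Slc2a6, a sugar transporter of the GLUT family found in leukocytes, stood at 0.699, 2.1005, 3.67, 1.63 and 0.337 CPM in control and at 145, 133, 197, 99.6 and 90.3 CPM in anti-CD40 mice (6.31 ± 0.37, adjusted p = 4.85e-11). In all of these the groups were apart. Of 18 genes of amino acid metabolism and the urea cycle, 11 fell and 4 rose (median -0.56), among them Agxt, which detoxifies glyoxylate, from 351 ± 24.9 to 117 ± 18.1 CPM (-1.59 ± 0.09).

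Redox genes moved in both directions, with 4 of 11 that rose and 6 that fell. Srxn1, sulfiredoxin, a target of the NRF2 stress response, stood at 39.4, 39.9, 44.99, 53.2 and 46.0 CPM in control and at 474, 498, 376, 315 and 689.5 CPM in anti-CD40 mice (3.40 ± 0.16, adjusted p = 9.08e-14). Slc7a11, the cystine importer that feeds glutathione synthesis, stood at 0, 0.808, 0, 0.297 and 0.168 CPM in control and 22.9, 42.8, 52.1, 10.98 and 23.01 CPM in anti-CD40 mice (6.81 ± 0.74, adjusted p = 2.92e-07). Nox4, an oxidase of stellate cells and other cells that makes hydrogen peroxide, stood at 20.5, 17.1, 15.2, 14.3 and 18.03 CPM in control and 1.48, 1.28, 0.989, 2.32 and 0.788 CPM in anti-CD40 mice (-3.61 ± 0.21, adjusted p = 3.8e-13). The groups were apart for all of these. Msra, which repairs oxidised methionine, fell from 359 ± 38.4 to 159 ± 20.01 CPM (-1.18 ± 0.09). Of 7 genes of iron, haem, copper and zinc handling, 2 rose and 3 fell. Alad, an early enzyme of haem synthesis, fell from 242 ± 25.6 to 96.4 ± 16.7 CPM (-1.33 ± 0.11), and Aco1, the iron-regulatory aconitase, from 151 ± 13.1 to 68.2 ± 6.05 CPM (-1.14 ± 0.08).

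Of 57 solute carriers and ABC transporters, 17 rose and 24 fell. The nucleoside carrier Slc29a1 fell from 129 ± 14.1 to 34.9 ± 4.08 CPM (-1.89 ± 0.10). Abcc6, the liver transporter whose loss causes ectopic calcification, fell from 89.5 ± 8.57 to 26.8 ± 4.22 CPM (-1.74 ± 0.10). Slc22a28, an organic anion carrier, fell from 38.8 ± 15.01 to 2.15 ± 0.879 CPM (-4.16 ± 0.34) over a stretch that shares 69.3% of its words with Slc22a30.

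**Figure D4:**
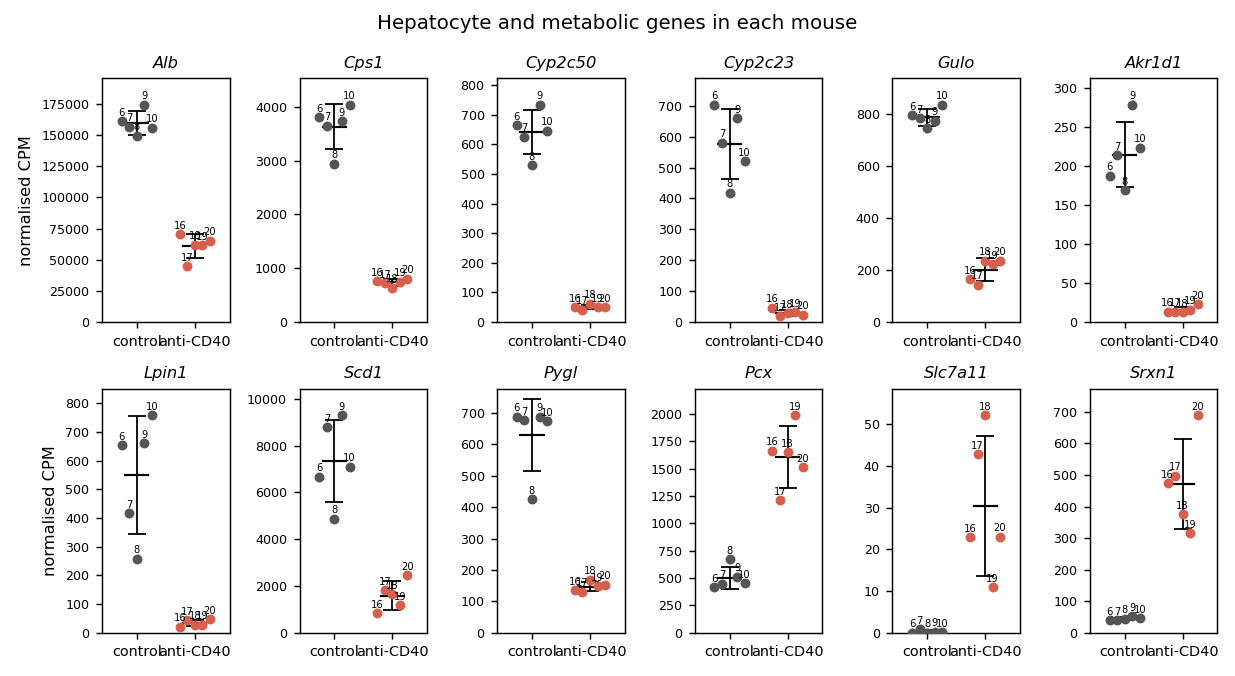
Normalised CPM of 12 hepatocyte and metabolic genes, with 1 point per mouse (numbered), the mean as a bar and the SD as whiskers; axes are linear and cut at 0. Alb, Cps1, Cyp2c50, Cyp2c23, Gulo, Akr1d1, Lpin1, Scd1 and Pygl are lower in all anti-CD40 mice, and Pcx, Slc7a11 and Srxn1 are higher in all of them.

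Of 11 measured genes of the mitochondrial genome, 0 rose and 7 fell (median -0.52), and of 8 nuclear genes of the respiratory chain 5 fell and 1 rose (median -0.45). With library totals 1 of the 11 rose and 6 fell, and with plate column as a term 0 rose and 5 fell. Together the 11 took 40333 to 57584 CPM in control mice, where mitochondrial transcripts took 22.4% to 31.1% of all counts. Most mitochondrial counts were thus outside the gene tests. mt-Nd5, a subunit of complex I, stood at 1461, 1236, 964, 1288 and 1205 CPM in control and 534, 584, 446, 579 and 565 CPM in anti-CD40 mice (-1.18 ± 0.12, adjusted p = 1.13e-08). mt-Nd2, also of complex I, fell from 2516 ± 352 to 1440.1 ± 157 CPM (-0.80 ± 0.10) and mt-Cytb, of complex III, from 31790.3 ± 3949 to 21151 ± 1595 CPM (-0.59 ± 0.11). mt-Co1, of complex IV, stood at -0.39 ± 0.11 with overlapping groups, and at -0.15 and not called with library totals. Among nuclear genes Cyc1, cytochrome c1, fell from 346 ± 33.7 to 150.2 ± 18.8 CPM (-1.204 ± 0.09). Uqcrfs1 (-0.61 ± 0.10) and Atp5c1 (-0.58 ± 0.09) fell less. Most genes of mitochondrial translation were not called, with 1 of 14 that rose (Mrpl21, 0.78 ± 0.10; 6 with library totals) and 5 that fell (3 with library totals), among them Nars2 (-1.06 ± 0.12) and Tfb2m (-0.85 ± 0.10).

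Lists of protein production and turnover had smaller changes, and their balance leans on the scaling. Of 20 heat shock and ER folding genes, 13 rose and 3 fell (median 0.30), of 30 splicing and RNA-binding genes 16 rose and 4 fell (0.26), and of 22 genes of ribosome biogenesis 9 rose and 1 fell (0.28). Hsph1, a heat shock protein of the Hsp110 family, stood at 140.01, 105, 117, 153 and 106 CPM in control and 238, 239, 265, 245 and 191 CPM in anti-CD40 mice (0.92 ± 0.12). The splicing factor Srsf7 rose from 103 ± 18.2 to 176 ± 9.495 CPM (0.77 ± 0.10), the nucleolar protein Nop56 by 0.66 ± 0.10, the arginyl-tRNA synthetase Rars by 1.09 ± 0.09 and the chaperonin subunit Cct3 by 0.66 ± 0.08. Bag4, a regulator of Hsp70 and death receptors, fell (-1.52 ± 0.14), as did the translation repressor Eif4ebp2 (-1.26 ± 0.09). Without mice 19 and 20, 7 of the 20 folding genes rose, and with plate column as a term 6. Of 52 proteasome and ubiquitin genes, 11 rose and 22 fell (median -0.24), with Usp24, a deubiquitinase, at -1.11 ± 0.11. Its 2 features stood at -1.29 and -0.53, and with attribution at 150 bp Usp24 stood at -0.54. With library totals 15 members of the list rose and 10 fell, so the direction of that list is not settled by these data. Of 16 lysosome and autophagy genes 3 rose and 9 fell (median -0.36), among them the autophagy kinase Ulk2 (-1.44 ± 0.09) and the lysosomal mannosidase Man2b1 (-1.08 ± 0.10).

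Of 13 transcription factors of immediate early, clock and hormone responses, 7 rose and 4 fell (2 and 2 with plate column as a term). Nr4a1, an immediate early orphan receptor, stood at 5.87, 6.95, 9.16, 6.38 and 3.20 CPM in control and 24.4, 27.1, 39.4, 17.8 and 21.9 CPM in anti-CD40 mice (2.05 ± 0.31). Vdr, the vitamin D receptor, reached 83 summed counts in anti-CD40 mice against 2 in control mice, 40.6 times as much (95% interval from counting error 10.9 to 341). Klf13 fell overall (-1.07 ± 0.14), but its 2 features moved in opposite ways (0.79 over 84 bp and -1.15 over 543 bp). Of 24 genes of growth factor signalling, 9 rose and 7 fell (14 and 3 with library totals, 5 and 2 with plate column as a term). Dusp5, a phosphatase that is induced by and switches off ERK, rose from 1.25 ± 0.387 to 13.97 ± 6.48 CPM (3.46 ± 0.29), the receptor Fgfr2 from 17.2 ± 2.93 to 66.0 ± 11.2 CPM (1.93 ± 0.14), and the Notch target Hes1 fell from 25.1 ± 5.03 to 7.64 ± 2.37 CPM (-1.70 ± 0.21). Of 20 cell cycle genes 6 rose and 1 fell, with 13 not called (median 0.16), against 31.8% higher and 28.8% lower over all genes. The antiproliferative gene Btg1 rose from 8.16 ± 2.28 to 28.8 ± 4.78 CPM (1.82 ± 0.16), the replication polymerase subunit Pold3 rose (0.94 ± 0.09), and the retinoblastoma relative Rbl2 fell (-1.01 ± 0.09).

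Kinases and phosphatases (23 of 59 rose, 14 fell), actin and adhesion genes (19 of 51 rose, 16 fell), vesicle traffic genes (24 of 72 rose, 12 fell) and chromatin genes (13 of 43 rose, 12 fell) are set beside the background of 31.8% higher and 28.8% lower. With library totals, 30 kinases and phosphatases rose and 9 fell, as did 35 and 5 vesicle traffic genes and 16 and 6 chromatin genes, so the balance of these lists depends on the scaling. Single members nevertheless differed clearly. Arid5a, an RNA-binding protein that stabilises inflammatory transcripts, stood at 12.99, 14.9, 19.99, 10.2 and 9.60 CPM in control and 107, 115, 129, 87.5 and 113 CPM in anti-CD40 mice (3.03 ± 0.18, adjusted p = 7.17e-12). St6gal1, the sialyltransferase of secreted glycoproteins, stood at 146, 147, 171, 149.7 and 172 CPM in control and 604, 547, 675, 802 and 574 CPM in anti-CD40 mice (2.03 ± 0.10, adjusted p = 1.8e-14). Hs3st3b1, a heparan sulfate sulfotransferase, fell from 140.1 ± 4.59 to 50.5 ± 2.19 CPM (-1.47 ± 0.09), the kinase Prkd3 from 307 ± 43.1 to 74.0 ± 10.2 CPM (-2.05 ± 0.11) and the phosphatase Ptprd from 228 ± 16.3 to 78.5 ± 13.7 CPM (-1.54 ± 0.10). The myosins split, with Myo1f, a leukocyte form, higher (2.90 ± 0.26) and Myo1e lower (-1.47 ± 0.13). Anxa7, an annexin, rose from 368 ± 47.5 to 751 ± 81.2 CPM (1.03 ± 0.09).

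Several of the largest changes were in genes with no or hardly any counts in 1 group. The predicted gene Gm48427 had 0 counts in control mice and was at least 58.7-fold higher in anti-CD40 mice, the fatty acid elongase Elovl7 at least 47.3-fold, Gm28114 at least 44.0-fold and the myosin Myo16 at least 36.5-fold, each against a floor of 3 counts over the group. Elovl7 stood at 3.79, 5.12, 3.96, 2.47 and 6.62 CPM in anti-CD40 mice 16 to 20. Gm19210 had 147 counts in control mice and 0 in anti-CD40 mice, at least 50.1-fold lower, but 96.6% of its words are shared with other genes. Pitx3, a homeobox factor, stood at 69.3, 66.1, 10.5, 44.8 and 54.6 CPM in control and at 0.330, 0.128, 0.495, 0.155 and 0.946 CPM in anti-CD40 mice (-6.88 ± 0.69, adjusted p = 1.51e-07). Control mouse 8 was far below the other control mice for Pitx3, and still above all anti-CD40 mice. Apbb1, an adaptor that binds the amyloid precursor protein, stood at 0.559, 1.13, 2.33, 0.297 and 1.68 CPM in control and 12.04, 8.83, 18.6, 13.9 and 383 CPM in anti-CD40 mice (6.21 ± 1.52, adjusted p = 0.0021). Mouse 20 alone set most of its change, which was 3.48 without that mouse. Gm45774 reached 175 summed counts against 2 (85.6 times as much, 95% interval from counting error 23.3 to 712), most of them in mouse 16. Counting intervals and floors cover counting error only.

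Among called genes with at least 5 CPM in the anti-CD40 mice, these mice differed most among themselves in Apbb1, Ccl3, Col14a1, F13a1, Gm45774 and Il33. Col14a1, a collagen of fibroblasts, stood at 84.8, 52.5, 74.98, 49.1 and 58.1 CPM in control and 16.3, 11.3, 17.98, 2.47 and 2.36 CPM in anti-CD40 mice (-2.67 ± 0.55), and Il33, an alarmin cytokine, at 1.54, 1.62, 3.67, 1.19 and 0.505 CPM in control and 8.74, 8.32, 6.43, 2.01 and 1.10 CPM in anti-CD40 mice (1.65 ± 0.59, adjusted p = 0.0206). Mice 19 and 20 were the lowest of the 5 for both, as they were for Col3a1 and F13a1. The call of Il33 was lost without mouse 10, 16 or 17. Across the 1438 genes with at least 5 CPM in both groups, the median SD of log2 CPM was 0.17 in control and 0.20 in anti-CD40 mice.

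The response with ABX was set against the response without ABX by testing the difference between the 2 changes in the same fit. With ABX, control mice 1 to 5 all lay in plate column 3 and anti-CD40 mice 11 to 15 all in column 4. The change with ABX therefore cannot be told apart from plate column, and the differences below carry that limit. The difference was called for 166 of 2200 genes (7.55%), more positive without ABX for 70 (3.18%) and more negative for 96 (4.36%). Of these, 69 had risen and 70 had fallen without ABX, and 27 had not been called. Per1, a clock gene that glucocorticoids also induce, stood at 12.99, 19.6, 16.5, 15.4 and 17.5 CPM in control and 32.3, 36.9, 38.3, 25.8 and 34.7 CPM in anti-CD40 mice without ABX (1.04 ± 0.22). With ABX its change was -1.24 ± 0.22, a difference of 2.28 ± 0.31 (adjusted p = 0.0005). Sat1, which acetylates polyamines for breakdown, rose from 95.4 ± 12.01 to 251 ± 63.2 CPM without ABX (1.40 ± 0.13), against 0.19 ± 0.13 with ABX (difference 1.21 ± 0.19, adjusted p = 0.000669). Coq8b, a mitochondrial protein of ubiquinone synthesis, rose by 2.31 ± 0.14 without ABX and changed by 1.10 ± 0.14 with ABX (difference 1.202 ± 0.20, adjusted p = 0.000817). Ripk2 went the other way, with 4.37 ± 0.18 with ABX against 2.69 ± 0.18 without (difference -1.68 ± 0.25, adjusted p = 0.000669).

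Among genes that fell without ABX, Gpr146, a receptor that regulates cholesterol secretion, changed by -1.29 ± 0.09 without and -0.48 ± 0.09 with ABX (difference -0.81 ± 0.13, adjusted p = 0.000669). Aldh1a1, a retinaldehyde dehydrogenase, fell more without ABX (-1.79 ± 0.12 against -0.84 ± 0.12, difference -0.95 ± 0.17). Frat1, a Wnt pathway protein (-0.81 ± 0.14 against 0.44 ± 0.14), and Chd9, a chromatin remodeller (-0.74 ± 0.13 against 0.29 ± 0.13), fell without ABX and had positive values with it. Tgtp2 (-1.02) and Fas (-0.72) had smaller rises without ABX, and Rgs1 (1.59) a larger one. Of the 5 interferon-inducible GTPases, Tgtp2 and Gm5431 had called differences, both more negative without ABX. None of the 16 interferon response genes, 11 microbial sensing genes or 15 chemokine and cytokine genes had a called difference in this fit, which does not show that their changes were equal. With plate column as a term the count fell to 0 by edgeR, with 282 genes at an unadjusted p under 0.05. With library totals 137 differences were called, 27 more positive and 110 more negative. Without control mouse 10 there were 104 and without anti-CD40 mouse 18 there were 94, and the count of more positive differences was 43 without control mouse 6, 45 without mouse 9, 39 without mouse 10 and 35 without mouse 18.

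**Figure D5:**
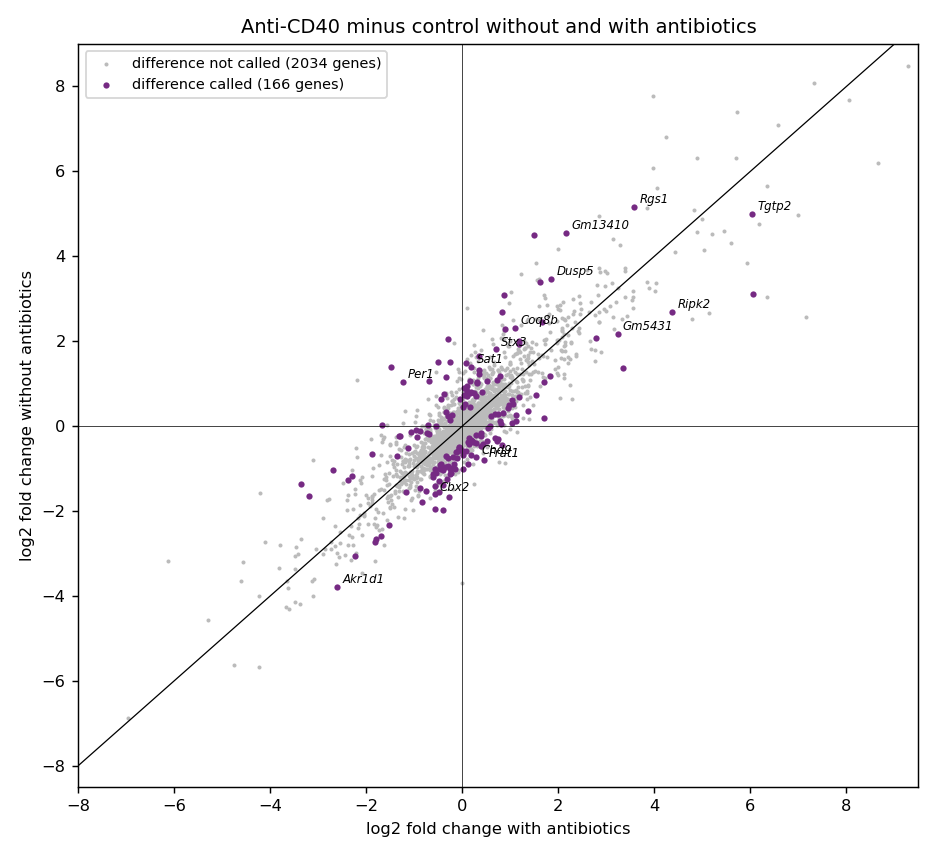
Log2 fold change of each of the 2200 genes (anti-CD40 minus control) without antibiotics against that with antibiotics, with the 166 genes whose difference was called in purple and the line of equal change; the 2 axes share no library. Per1, Frat1 and Chd9 have changes of opposite sign with and without antibiotics, and fitted values of genes with 0 counts in a group depend on the prior count.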

How the data were processed

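The authors' deposited values are raw counts of fragments per feature, not normalised. Per the file headers they were made with featureCounts 1.5.0-p2 in paired mode with no strand option and a human annotation. The submitters' processing notes name Trimmomatic 0.38, HISAT2 2.1.0 and the build mm10. The row names are therefore human and were not used. Feature coordinates were read as mm10, and features over exons of exactly 1 mouse gene (GENCODE M21, at least 50 bp) were summed per gene, which gave 2200 genes tested. Features over several genes held 52.34% of all counts of the 20 libraries and were left out. Without strand, overlapping and antisense genes cannot be told apart.

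The gene test was edgeR 4.0.16 (R 4.3.3, TMM, filterByExpr, two-sided quasi-likelihood F-test with robust estimation). It fitted 1 mean per group over 20 libraries, with a biological coefficient of variation of 16.7%. The code was also run on simulated counts in which far fewer genes changed than were called here. That run does not check the scaling or the rate of false calls in these data. Alternatives used library totals, DESeq2 1.42.0, other filters and attributions (bedtools 2.31.1), plate column as a term, and each mouse left out. Named genes were the largest changes and CPM differences, up to 3 members per list by p, the widest spreads and the clearest differences by ABX; further list members were named after their values were seen. Some genes that the rule chose are not reported here. The members and lists were chosen with earlier results of these data known. Lists carry no set test. Nothing beyond the labels shows that mice were handled separately, so p-values measure the spread between these samples.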

Additional observations from a re-analysis of the deposited data

Results flagged for a closer look

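In 32 of 362 groups of 5 mice (8.84%), 1 mouse lay far from the other 4 by Dixon's test. Chance alone gives about 1 in 20, but some of these genes were chosen for their spread among mice and some groups hold 1 or 2 counts, so the share is a description and not a test. Control mouse 8 was that mouse in 19 cases. Its level was high for Adgre1 (38.0 CPM), Ambp (6539 CPM), Cfd (29.8 CPM), Cp (1638 CPM), Cpb2 (884 CPM), Lgals3bp (239.8 CPM), Marco (93.1 CPM), Nod1 (58.1 CPM), Spic (9.33 CPM), Stab2 (56.0 CPM) and Vdr (0.333 CPM), and the feature over Hp took 6.86% of its counts. Its level was low for Atp5c1 (314 CPM), Frat1 (15.995 CPM), Prkd3 (232 CPM), Ptprd (200.1 CPM), Pygl (426 CPM) and Usp24 (36.8 CPM). Mitochondrial transcripts took 22.4% of its counts, a low value for a control mouse.

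The other flags were spread over several mice. Among anti-CD40 mice, mouse 20 stood apart for Apbb1 (383 CPM) and Parp12 (145 CPM), mouse 17 for Apoe (44417 CPM), Clta (312 CPM) and the share of counts off exons (0.749%), mouse 16 for Gm45774 (22.4 CPM), and mouse 18 for Gm48427 (1.98 CPM) and Marco (133 CPM). Among control mice, mouse 7 stood apart for Dusp5 (1.94 CPM) and Ly6i (0.162 CPM), mouse 10 for Gm45774 (0.337 CPM) and mouse 6 for the share of counts over several genes (45.6%). The values of Ly6i and Gm45774 in control mice rest on 1 and 2 counts.

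The feature over Hp, Dhodh, Txnl4b and Pkd1l3 lies outside the gene tests and took 18.7% of the counts of anti-CD40 mice, against 2.52% in control mice.

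The tested difference between the changes without and with ABX was called for 30 of the genes chosen to be named. Among them, it was positive for Per1 (2.28), Gm13410 (2.39), Dusp5 (1.61), Rgs1 (1.59), Sat1 (1.21), Coq8b (1.202), Stx3 (1.11), Fgfr2 (0.75), Chd7 (0.73), Zfp579 (0.61), Mrpl21 (0.54), Clta (0.39) and Vps37c (0.36). It was negative for Ripk2 (-1.68), Frat1 (-1.25), Akr1d1 (-1.18), Gm5431 (-1.06), Chd9 (-1.03), Cbx2 (-1.02), Tgtp2 (-1.02), Aldh1a1 (-0.95), Gpr146 (-0.81), Ptprd (-0.77), Fas (-0.72), Ubr3 (-0.62), Hs3st3b1 (-0.60), Usp24 (-0.56), Rbl2 (-0.55) and Aco1 (-0.54). All 30 were tested in 1 fit with the other genes, and none was called with plate column as a term.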

How the results depend on the processing

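Calls numbered 1012 to 1447 under the other scalings, filters, attributions and tools, and 1262 to 1322 when 1 mouse was left out (651 to 700 higher, 609 to 629 lower, 51.1% to 53.0% of calls higher). No gene called in the reported test was called in the opposite direction in any alternative. Plate column as a term gave 735 calls (396 higher, 339 lower) and 0 differences by ABX in either direction, and ended the calls of 17 of the genes chosen to be named; the design leaves 3 of the 10 mice in a shared column, and the cause was not tested. Library totals gave 405 lower calls (69.7% of calls higher) and 27 more positive differences by ABX, and Iars turned to 0.077, not called. Differences by ABX numbered 94 to 194 without 1 mouse (35 to 76 more positive, 59 to 118 more negative). Group differences of library shares, anti-CD40 minus control, ranged without 1 mouse from -1083240 to -727736 fragments in total, from -5.29 to -3.11 percentage points for mitochondrial counts (exact permutation p = 0.0476 with all mice, 0.00794 without control mouse 8 and 0.0635 to 0.119 without any other mouse) and from 0.0756 to 0.123 for counts off exons, which differed by 0.0906 (exact permutation p = 0.246) over nuclear counts alone. The mitochondrial share is of all counts, so its total includes the feature over Hp. Cd79b (-0.150 to 0.215), Ighm (-0.0382 to 0.193) and Slc4a1 (-0.159 to 0.417), none of them called, changed sign without 1 mouse. Apob was not called in 10 libraries alone or without a filter. The share over several genes, with the feature over Hp also taken out of the total, was an alternative chosen after seeing the data. It still differed (43.8% against 53.2%, exact permutation p = 0.00794), over a total that shrank more in anti-CD40 mice. No paired analysis was possible because the 2 groups share no replicate numbers. Genes of few counts, short measured stretches and the single shared plate column limit what these data resolve.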

Other observations

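Further genes of RNA handling and protein synthesis mostly rose by small amounts. Ewsr1, an RNA-binding protein of transcription and splicing, stood at 0.68 ± 0.07, the U2 splicing component Snrpa1 at 0.88 ± 0.12, the ribosomal DNA transcription factor Ubtf at 0.54 ± 0.09 and the GTP-binding protein Gnl1 at 0.65 ± 0.08, and all 4 rose. The initiation factor Eif5b stood at 0.39 ± 0.07, and Aimp1, a scaffold of the tRNA synthetase complex, at 0.66 ± 0.09. The isoleucyl-tRNA synthetase Iars stood at -0.16 ± 0.07 with overlapping groups. Eif4a-ps4 stood at 0.79 ± 0.10, but all of its measured 31-base words also occur in Eif4a1.

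Among genes of membrane traffic and protein modification, the fusion protein Stx3 stood at 1.81 ± 0.18, the ESCRT subunit Vps37c at 1.08 ± 0.08 and the clathrin light chain Clta at 0.79 ± 0.08, and all 3 rose. The glucosyltransferase Alg10b stood at -1.13 ± 0.08, and the ubiquitin ligases Rnf128 and Ubr3 at -0.98 ± 0.12 and -1.03 ± 0.12, and all 3 fell. Rnf128 stood at 35.8, 30.4, 36.8, 41.4 and 36.4 CPM in control mice 6 to 10 and 16.7, 15.5, 18.5, 23.7 and 17.5 CPM in anti-CD40 mice 16 to 20, with the groups apart.

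Chromatin and zinc finger proteins moved in both directions. The Polycomb protein Cbx2 stood at -1.61 ± 0.15, the remodeller Chd7 at 1.05 ± 0.14, and the zinc finger proteins Zfp652, Zfp579 and Zbtb7a at -0.61 ± 0.07, 0.77 ± 0.12 and -0.81 ± 0.17. Of 169 long noncoding and predicted genes, 61 rose and 35 fell (29 and 14 with plate column as a term). Gm12428 fell from 4.72 ± 1.78 to 0.270 ± 0.296 CPM (-4.02 ± 0.55), and Gm13410 stood at 4.56 ± 0.44. They share 43.3% and 34.4% of the 31-base words of their measured stretches with Ywhah and Ddx6, respectively.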
